A study of Mus musculus with 12 samples.

Results

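The pentose phosphate pathway was described through 8 enzymes, found by their symbols in the deposited count table. *G6pdx*, *H6pd*, *Pgls* and *Pgd* make up the oxidative branch, and *Rpia*, *Rpe*, *Tkt* and *Taldo1* the non-oxidative branch. They are 8 of 39017 genes listed, of which 13548 had no count in any tumor, and the 8 enzymes all passed the filter on low counts that left 16527 genes for testing.

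Glucose-6-phosphate enters the pathway where it leaves glycolysis. The oxidative branch oxidizes it to ribulose-5-phosphate and reduces NADP to NADPH, which cells spend on fatty acid synthesis and on keeping glutathione and thioredoxin reduced. The non-oxidative branch is reversible and connects ribose-5-phosphate, the sugar of nucleotides, with the intermediates of glycolysis. *G6pdx*, *Pgd*, *Tkt* and *Taldo1* are known targets of NRF2, the transcription factor of the oxidant response. Surfactant lipid synthesis gives alveolar type 2 (AT2) cells of the lung a steady need for NADPH.

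The samples were the CD45-negative fractions, depleted of leukocytes with magnetic beads, of 12 mouse lung tumors in 4 groups of 3. Every mouse carried KrasLSL-G12D/WT, p53 fl/fl and CCSP-rtTA on a C57BL/6 background (KP), and KPG1 mice also carried Glut1 fl/fl, which makes *Slc2a1*, the gene of the glucose transporter Glut1, removable by Cre. Every mouse was given 6000 units of the lentivirus Lenti.TRE-PPARαΔ13_PGK-Cre into the trachea, and tumors were taken 26 weeks later. Cre starts the tumors, and PPARαΔ13 is a dominant negative mouse form of PPARα, the fatty-acid-sensing nuclear receptor. It is transcribed only with doxycycline, and the rtTA it needs is driven by the club cell promoter CCSP. The groups KP-PPARαΔ13 and KPG1-PPARαΔ13 ate food holding 625 mg/kg of doxycycline over 15 days, and KP and KPG1 ate regular food, so that diet and induction cannot be told apart. By a number in the labels that is read as the mouse, the tumors of KP came from 2 mice, of KP-PPARαΔ13 from 3, of KPG1 from 2 and of KPG1-PPARαΔ13 from 2. The KP tumors were all from females and the KPG1 tumors all from males; 1 of 3 KP-PPARαΔ13 tumors and 2 of 3 KPG1-PPARαΔ13 tumors were from females. Read counts summed to between 25263794 and 32654223 per tumor, and the lowest count of any of the 8 enzymes in any tumor was 671.

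The genes behind the labels were measured first, in CPM, the read count of a gene scaled to the size of its library by TMM. *Slc2a1* stood at 41.7, 35.3 and 57.7 CPM in the KP tumors and at 30.2, 64.0 and 39.9 CPM in the KPG1 tumors, with overlap. In the tumors on doxycycline it stood at 153, 115 and 108 CPM in KP-PPARαΔ13 and at 23.7, 53.2 and 54.5 CPM in KPG1-PPARαΔ13, without overlap (log2 fold change -1.51 ± 0.36, edgeR adjusted p 0.462, DESeq2 adjusted p 0.0139). A count over a whole gene does not show whether floxed exons were removed. *Ppara* read 2.71, 64.6 and 246 CPM in the KP-PPARαΔ13 tumors and 8.90, 19.2 and 17.7 CPM in the KPG1-PPARαΔ13 tumors, against 7.24 to 15.7 CPM in the 6 tumors on regular diet. The first KP-PPARαΔ13 tumor thus had the lowest *Ppara* of all 12, and the first KPG1-PPARαΔ13 tumor lay inside the range of the regular diet. Group names below are thus those of the labels.

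Tumor and lung markers matched the labelled source. The 6 AT2 markers summed to between 45196 and 135250 TPM, a level that also accounts for transcript length, led by surfactant gene *Sftpc* with a mean of 52121 TPM, and the 6 epithelial markers to between 4563 and 11161 TPM. The 8 leukocyte markers summed to 50.8 to 97.1 TPM, led by *Cd68* with a mean of 54.0 TPM, and the T cell gene *Cd3e* was at 0 in 1 tumor, the third of KP-PPARαΔ13. Club markers summed to 94.4 to 1420 TPM, endothelial markers to 59.6 to 309 TPM, fibroblast markers to 28.7 to 205 TPM and erythroid markers, led by *Hbb-bt*, to 1665 to 6588 TPM. The RNA came from whole fractions, in which fewer cells of a type and less RNA per cell cannot be told apart.

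The bases before the RefSeq start of each enzyme were searched for short words, those of NRF2 and PPARα and 3 other promoter words. All 8 enzymes had an entry, and *Pgd* had 2. In the 250 bases before the start (build GRCm38.p6), both strands were searched for TGACNNNGC, the core of the antioxidant response element bound by NRF2, for AGGTCA, the element that PPARα and other nuclear receptors bind singly or in repeats, for CCAAT, for the GC box GGGCGG and for the E-box CACGTG. Of the 16 matches, 5 are shown in stretches of 30 bases, written 5′ to 3′ on the strand of the gene with the match in capitals: those of NRF2 and PPARα, and 3 examples of CCAAT and the GC box.
G6pdx, chrX:74428919-74428948, minus strand: gaggcgggtcaGCTCAGTCAaagcacacgc
H6pd, chr4:150003320-150003349, minus strand: ttgagtgtctatTGACCTttgttcttaatg
Pgd, chr4:149166735-149166764, minus strand: gcgccgcagagacCCAATagcgtggggcat
Taldo1, chr7:141392130-141392159, plus strand: gcttcatttagctttgctttgATTGGccag
Rpia, chr6:70792176-70792205, minus strand: ggtttccggaggagttgggggtgGGGCGGc

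*G6pdx*, which commits glucose to the pathway, was the one enzyme of the 8 with the TGACNNNGC word, on the strand opposite to the gene and ending 49 bases before the start. This word was in 10.16% of the 32851 promoter entries of the same length. *H6pd* was the one with AGGTCA, a word in 14.02% of entries, but its RefSeq start lies 5787 bases from the start of the gene in GENCODE M21. CCAAT was matched at 42 and 5 bases before the start in *Pgd*, at 5 bases in *Taldo1* and at 202 bases in *H6pd*, against 33.85% of entries. The GC box was in 7 of the 8 enzymes, *H6pd* excepted, against 32.74% of entries, and 2 of its 3 matches in *Tkt* overlapped. The second entry of *Pgd* held none of the words. The entries with a GC box were 54.4 to 64.4% G and C, that of *H6pd* 38.8%, and the median entry 52.4%. CACGTG was in none of the 8 and in 6.02% of entries. Such matches are letters in a window and not shown to be bound.

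Per length of all exons of a gene, *H6pd* had the highest mean level of the 8 and *Rpia* the lowest. Mean TPM over the 12 tumors was 233 ± 49.3 (SD) for *H6pd*, 152 ± 24.4 for *Taldo1*, 109 ± 17.7 for *Pgd* and 93.6 ± 23.2 for *Tkt*. It was 77.8 ± 25.4 for *G6pdx*, 37.5 ± 7.89 for *Rpe*, 30.9 ± 8.63 for *Pgls* and 27.6 ± 10.3 for *Rpia*. *H6pd* thus exceeded 98.3% of the genes listed by mean TPM and *Rpia* 82.7%.

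Neighbours in this order were set apart unevenly. *H6pd* was above *Taldo1*, *Taldo1* above *Pgd*, and *G6pdx* above *Rpe* in 11 of 12 tumors each. *Pgd* exceeded *Tkt* and *Tkt* exceeded *G6pdx* in 9 of 12 tumors each, *Rpe* exceeded *Pgls* in 10 and *Pgls* exceeded *Rpia* in 8. With all exons as length, the gap from *G6pdx* to *Rpe* was the widest, with a mean log2 ratio of 1.01 ± 0.72 (SD, n = 12), and only the ratios of *H6pd* to *Taldo1*, *Taldo1* to *Pgd* and *G6pdx* to *Rpe* had a mean above their SD. With the longest transcript as length in place of all exons, *Tkt* had 164 TPM in place of 93.6 and stood above *Pgd* (148 TPM), and *Pgls* (33.4 TPM) above *Rpe* (32.9 TPM), so the order within these pairs depends on the length used. *H6pd* was then above *Taldo1* in 8 of 12 tumors, with a mean log2 ratio of 0.08 ± 0.45, and the widest gap was from *Pgd* to *G6pdx*, 1.15 ± 0.50 in 12 of 12 tumors.

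**Figure D1:**
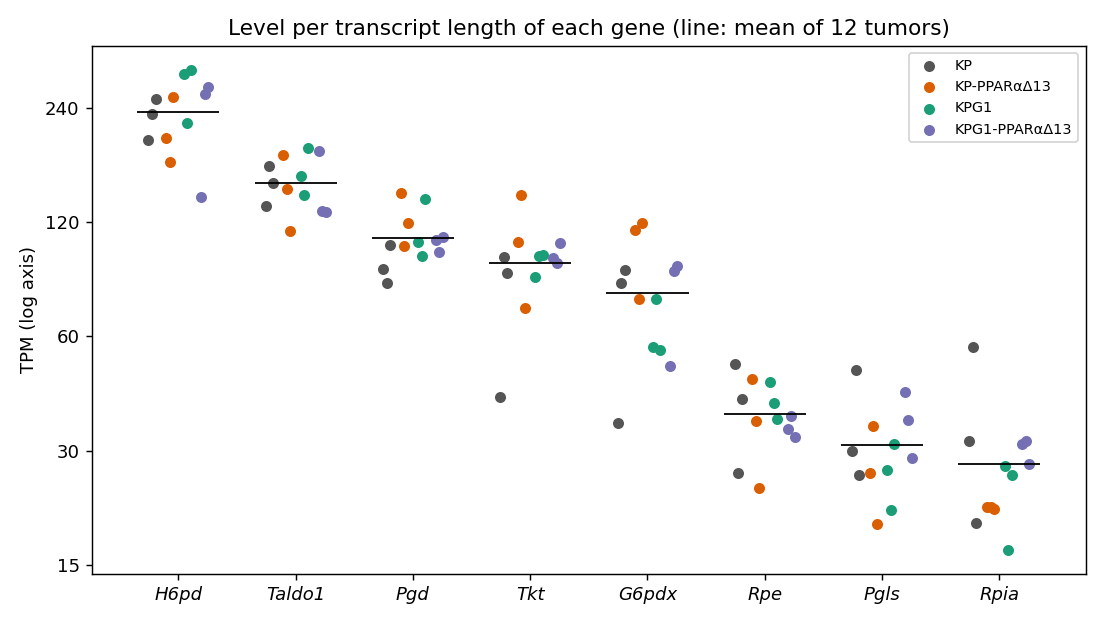
TPM of the 8 enzymes (log axis) in each of 12 tumors, coloured by group, with a line at the mean. *H6pd* and *Taldo1* lie at the top with means of 233 and 152 TPM, and *Rpe*, *Pgls* and *Rpia* at the bottom with means of 37.5, 30.9 and 27.6 TPM.

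The 8 enzymes together took up 609 TPM in the first KP tumor, the lowest, and 875 TPM in the third KPG1 tumor, the highest. Their summed level was 725 ± 101 TPM (SD, n = 3) in KP, 771 ± 58.5 in KP-PPARαΔ13, 794 ± 83.9 in KPG1 and 753 ± 58.7 in KPG1-PPARαΔ13, with overlap among the groups. The oxidative branch summed to 451 ± 63.2 TPM (n = 12) and the non-oxidative branch to 310.2 ± 39.96 TPM. Of the oxidative sum, *G6pdx*, *Pgls* and *Pgd*, which work in the cytosol, held 217 ± 32.7 TPM.

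Among the oxidative enzymes, *G6pdx* varied most. It encodes glucose-6-phosphate dehydrogenase, the X-linked enzyme that makes the first NADPH and sets the entry into the pathway. It stood at 31.5, 65.1 and 82.4 CPM in the KP tumors, at 98.3, 65.4 and 114 CPM in KP-PPARαΔ13, at 50.1, 78.7 and 51.1 CPM in KPG1 and at 42.9, 75.6 and 81.9 CPM in KPG1-PPARαΔ13. The first KP tumor was lowest and the third KP-PPARαΔ13 tumor highest, 3.62-fold apart, and each group overlapped every other. The KP-PPARαΔ13 tumors at 98.3 and 114 CPM were from males, and that at 65.4 CPM was, like all KP tumors, from a female. The log2 fold change was 0.63 ± 0.37 (SE) in KP-PPARαΔ13 against KP, with a 95% interval from -0.18 to 1.45 and an edgeR adjusted p of 0.555. Without the first KP tumor it was 0.33. In KPG1 against KP it was 0.01 ± 0.37, with an interval from -0.80 to 0.82, and -0.48 with sex as a covariate.

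*H6pd* encodes the counterpart in the lumen of the endoplasmic reticulum, which performs the first steps of the branch in one protein and feeds NADPH to reductases there. It read 299, 309 and 397 CPM in KP, 292, 256 and 417 CPM in KP-PPARαΔ13, then 445, 389.9 and 474 CPM in KPG1 and 204, 376 and 414 CPM in KPG1-PPARαΔ13. KPG1 had the highest mean, 436 ± 42.7 CPM (SD, n = 3), but its lowest tumor lay below the highest tumor of each other group. KPG1 against KP gave a log2 fold change of 0.38 ± 0.28 (interval -0.23 to 0.99, edgeR adjusted p 0.831), and KPG1-PPARαΔ13 against KPG1 gave -0.40 ± 0.28 (interval -1.01 to 0.21, adjusted p 0.636), which was -0.14 without the first KPG1-PPARαΔ13 tumor. In the latter comparison the AT2 marker sums also lay apart, at 94913, 129492 and 135250 TPM in KPG1 and at 56152, 78133 and 81433 TPM in KPG1-PPARαΔ13, and their part in the difference was not tested. Per length, *H6pd* was above *G6pdx* in every tumor. The TPM ratio of *H6pd* to *G6pdx* went from 1.75 in the first KP-PPARαΔ13 tumor to 5.58 in the first KP tumor.

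The ratio averaged 3.73 ± 1.60 (SD, n = 3) in KP, 2.07 ± 0.29 in KP-PPARαΔ13, 4.53 ± 1.41 in KPG1 and 2.90 ± 0.09 in KPG1-PPARαΔ13. The highest of KP-PPARαΔ13, 2.30, was below the lowest of KP, 2.79, while KPG1 (2.91 to 5.45) and KPG1-PPARαΔ13 (2.79 to 2.97) overlapped, and both groups on regular diet held at least 1 tumor above 5. No test was run on the ratio, which was formed after the values of both genes were known.

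*Pgls*, whose lactonase carries the second step, was the scarcest oxidative enzyme. It ranged from 22.5 CPM in the third KP-PPARαΔ13 tumor to 47.2 CPM in the second KP tumor, and its group means lay between 29.1 ± 7.51 and 37.9 ± 6.75 CPM (SD, n = 3). Its intervals were among those that took in both directions in each of the 4 comparisons. *Fam129c*, which shares 3445 bases of the same strand with *Pgls*, had 0.84 to 7.33 CPM and varied together with it (r = 0.82 over 12 tumors), and reads in that stretch could not be told apart.

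*Pgd* encodes 6-phosphogluconate dehydrogenase, which makes the second NADPH and releases ribulose-5-phosphate. Its values were 168, 137 and 201 CPM in KP, 258, 189 and 238 CPM in KP-PPARαΔ13, then 198, 214 and 268 CPM in KPG1 and 194, 177 and 205 CPM in KPG1-PPARαΔ13. It was low in 2 KP tumors, which came from the same mouse, and the third KP tumor lay inside the range of the doxycycline group. KP-PPARαΔ13 against KP gave a log2 fold change of 0.44 ± 0.20 with an unadjusted p of 0.0487 and an adjusted p of 0.438 by edgeR. The erythroid marker sums also lay apart between these groups, at 1665 to 3403 TPM in KP and 3806 to 5969 TPM in KP-PPARαΔ13. So did the fibroblast marker sums, at 49.2 to 89.9 TPM in KP and 94.7 to 205 TPM in KP-PPARαΔ13. The part of these sums was not tested. Sex differed as well: the KP-PPARαΔ13 tumors at 258 and 238 CPM were from males. The tumor at 189 CPM was, like all KP tumors, from a female and lay inside the range of KP. KPG1 against KP gave 0.43 ± 0.20 (interval -0.01 to 0.86, adjusted p 0.787). The highest and lowest tumors were 1.956-fold apart, the narrowest range of the 8 after *Taldo1*.

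**Figure D2:**
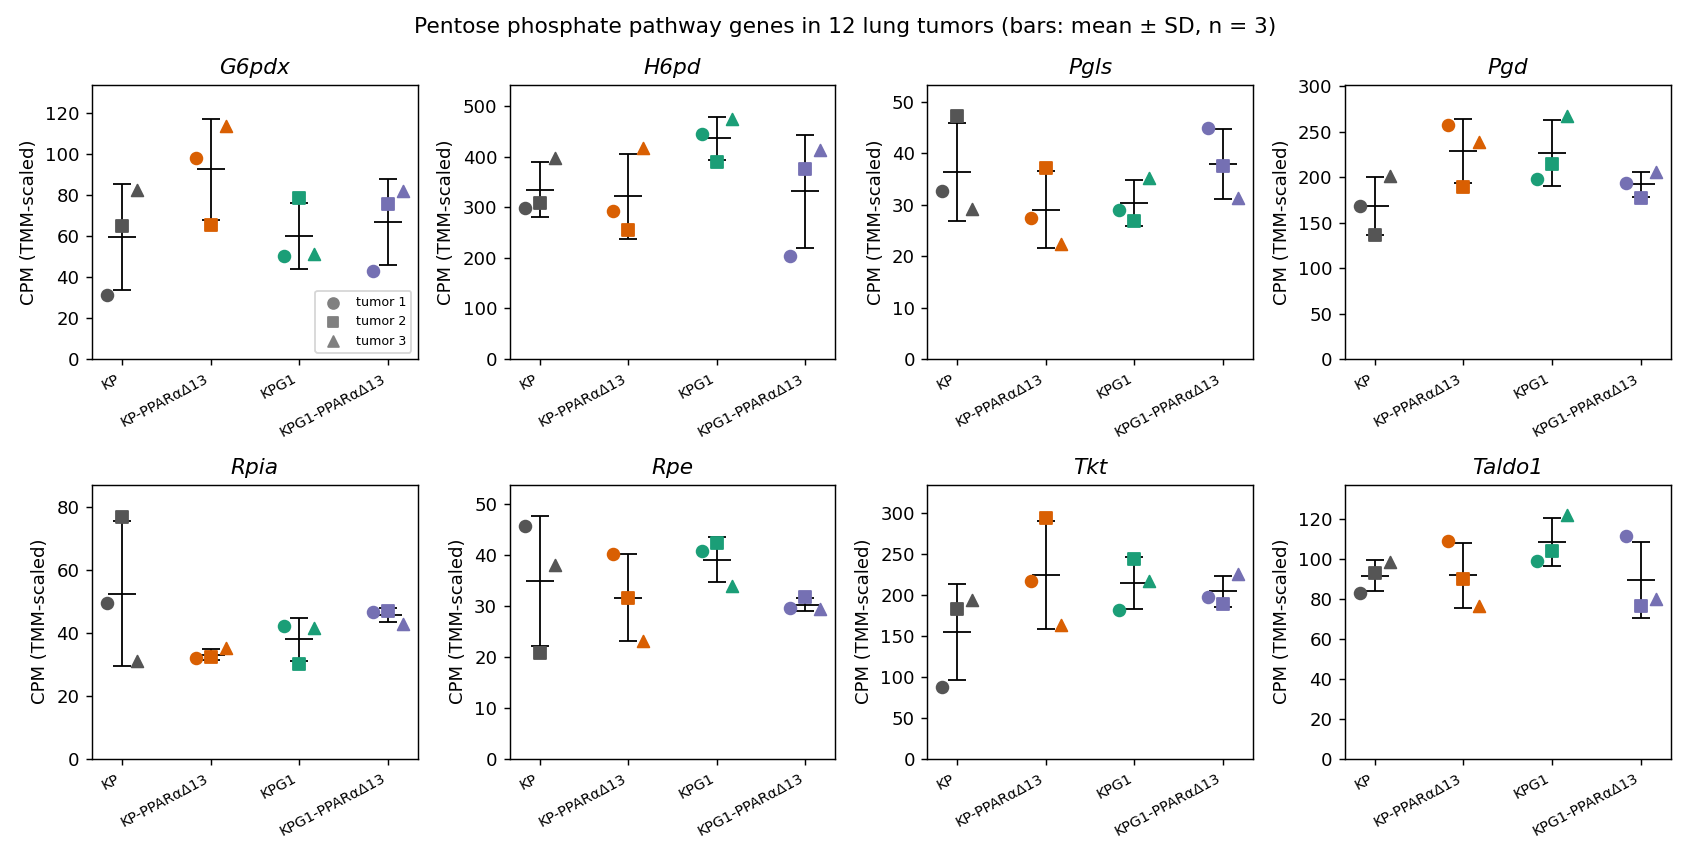
CPM (TMM-scaled, axes from 0) of each enzyme in each tumor; symbols give the tumor number within a group and black bars the mean ± SD of 3 tumors. The first KP tumor has the lowest *G6pdx* and *Tkt*, and the second KP tumor the highest *Rpia* and *Pgls* and the lowest *Pgd* and *Rpe*.

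In the non-oxidative branch, *Rpia* had the widest spread within a group relative to its mean, a coefficient of variation of 43.9% of CPM in KP. Its isomerase turns ribulose-5-phosphate into ribose-5-phosphate for nucleotides. It stood at 49.4, 76.7 and 31.0 CPM in the KP tumors, at 31.9, 32.2 and 35.1 CPM in KP-PPARαΔ13, at 42.1, 30.02 and 41.5 CPM in KPG1 and at 46.7, 46.9 and 42.9 CPM in KPG1-PPARαΔ13. The 3 KP-PPARαΔ13 tumors lay close together inside the wide range of KP, and the 3 KPG1-PPARαΔ13 tumors lay above every KPG1 and KP-PPARαΔ13 tumor. The log2 fold change was -0.66 ± 0.28 in KP-PPARαΔ13 against KP, with an unadjusted p of 0.0377 and an adjusted p of 0.409 by edgeR. Without the second KP tumor it was -0.28. The erythroid and fibroblast sums that lay apart between these groups were given with *Pgd*, and their part was not tested here either.

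*Rpe*, the epimerase that leads ribulose-5-phosphate to xylulose-5-phosphate, was scarce as well. It read 45.6, 20.8 and 38.1 CPM in KP, 40.2, 31.6 and 23.1 CPM in KP-PPARαΔ13, then 40.9, 42.4 and 34.0 CPM in KPG1 and 29.7, 31.7 and 29.4 CPM in KPG1-PPARαΔ13. Every KPG1-PPARαΔ13 tumor was below every KPG1 tumor, with a log2 fold change of -0.37 ± 0.29 (interval -0.995 to 0.26, edgeR adjusted p 0.67). *Kansl1l*, on the opposite strand with 558 shared bases, varied with *Rpe* (r = 0.89 over 12 tumors, 30.6 to 80.0 CPM), and whether counting used strand is not given in the sources used here.

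*Tkt* encodes transketolase, which moves carbon units between sugar phosphates with thiamine diphosphate as cofactor. It stood at 88.1, 183 and 194 CPM in KP, at 218, 294 and 163 CPM in KP-PPARαΔ13, at 182, 245 and 217 CPM in KPG1 and at 198, 189 and 226 CPM in KPG1-PPARαΔ13. The first KP tumor was the lowest by a wide margin, and the second tumor of the same mouse held 2.07 times as much. The log2 fold change in KP-PPARαΔ13 against KP was 0.54 ± 0.30 (interval -0.11 to 1.19, edgeR adjusted p 0.528), which was 0.26 without the first KP tumor and 0.30 without the second KP-PPARαΔ13 tumor.

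*Taldo1*, transaldolase, which completes the exchange of carbon with glycolysis, had the narrowest range of the 8 by fold. It stood at 83.2, 93.2 and 98.6 CPM in KP, at 109, 89.9 and 76.6 CPM in KP-PPARαΔ13, at 99.2, 104 and 122 CPM in KPG1 and at 111, 76.7 and 80.3 CPM in KPG1-PPARαΔ13. The highest and lowest tumors were 1.59-fold apart, and each KPG1 tumor was above each KP tumor. That difference was a log2 fold change of 0.24 ± 0.20 (interval -0.19 to 0.68, edgeR adjusted p 0.849). By the spread within groups *Pgd* came first, just below *Taldo1*: their biological coefficients of variation in the fit, 0.20 and 0.21, exceeded those of 4.71% and 5.65% of genes tested, while that of *G6pdx*, 0.34, exceeded 49.5%.

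The first comparison asked how the enzymes differed between tumors on the doxycycline diet and on the regular diet with wild-type *Slc2a1*. In KP-PPARαΔ13 against KP, *G6pdx*, *Pgd*, *Tkt* and *Taldo1* had positive log2 fold changes and *H6pd*, *Pgls*, *Rpia* and *Rpe* negative ones, from 0.63 to -0.66, and none of the 8 passed an edgeR adjusted p of 0.05. Of all genes tested 0.00605% passed it. DESeq2 and limma voom passed none of the 8 in this or any later comparison either, with a smallest DESeq2 adjusted p of 0.259 (*Pgd*, in the interaction). At an unadjusted p of 0.05, *Pgd* (higher) and *Rpia* (lower) passed, 2 of 8, against 11.4% of all genes. In none of the 8 were the groups apart in CPM, against 13.3% of all genes. The median log2 fold change was -0.03 for the 8 and -0.01 for all genes.

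In KPG1-PPARαΔ13 against KPG1, the same question with floxed *Slc2a1*, none of the 8 passed the adjusted threshold, against 0.00605% of all genes. None passed an unadjusted p of 0.05, against 10.8% of genes. *Rpia* was higher and *Rpe* lower without overlap, 2 of 8, against 20.6% of genes. The log2 fold changes went from -0.40 (*H6pd*) to 0.32 (*Pgls*, 0.18 without the first KPG1-PPARαΔ13 tumor), with a median of -0.15 for the 8 and 0.02 for all genes. The 95% intervals over the 8 reached from -1.01 to 0.97, so that differences of nearly 2-fold in single enzymes lie inside them.

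The comparison of genotypes on the regular diet asked whether the enzymes that use glucose differed where its transporter was floxed. In KPG1 against KP none of the 8 passed the adjusted threshold, against 0.0363% of all genes, and none passed an unadjusted p of 0.05, against 6.23%. *Taldo1* alone was without overlap, 1 of 8, against 9.95% of genes. Of the 8, 6 had positive log2 fold changes and *Pgls* and *Rpia* negative ones, with a median of 0.21 against -0.03 for all genes. With sex as a covariate this median was 0.08, and sex and genotype cannot be told apart within these 6 tumors. The club marker sums lay apart too, at 167 to 455 TPM in KP and 471 to 966 TPM in KPG1, and their part was not tested.

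On the doxycycline diet, in KPG1-PPARαΔ13 against KP-PPARαΔ13, none of the 8 passed the adjusted threshold, against 0.0303% of all genes. None had an unadjusted p under 0.05, against 9.69% of genes, and *Rpia* alone was without overlap (higher in KPG1-PPARαΔ13, log2 fold change 0.46 ± 0.28, edgeR adjusted p 0.603), 1 of 8, against 17.6% of genes. The median over the 8 was -0.05, against 0.01 for all genes. The fibroblast marker sums lay apart there, at 94.7 to 205 TPM in KP-PPARαΔ13 and 50.8 to 73.3 TPM in KPG1-PPARαΔ13. Their part was not tested. The comparisons share groups with one another, so the values of one are not independent of the next.

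**Figure D3:**
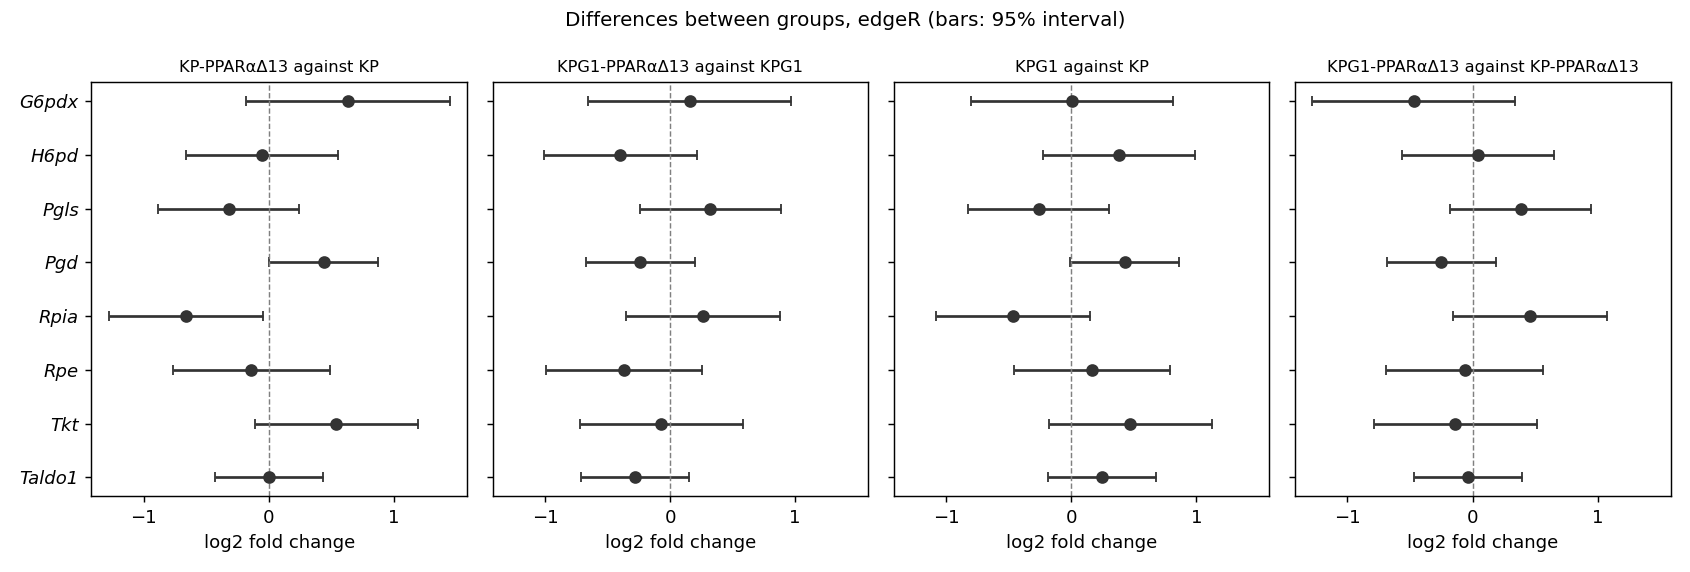
Log2 fold change of each enzyme (point) with its 95% interval (bar) from edgeR in the 4 comparisons of groups; the dashed line is no difference. The intervals of *Pgd* and *Rpia* in KP-PPARαΔ13 against KP leave out 0 before adjustment, and the others include it.

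The difference of the doxycycline effect between the genotypes was tested as an interaction. It was -0.68 ± 0.28 on the log2 scale for *Pgd* (unadjusted p 0.0339, edgeR adjusted p 0.404) and 0.93 ± 0.40 for *Rpia* (0.039 and 0.405), the latter 0.55 without the second KP tumor. None of the 8 passed the adjusted threshold, nor did any gene tested (0%), while DESeq2 passed 286 genes and limma voom 0. Of the 8 enzymes, 2 had an unadjusted p under 0.05 by edgeR, against 11.8% of all genes. The sexes were spread unevenly over the 4 groups. With sex as a covariate, the median interaction of the 8 went from -0.31 to 0.00693, so it cannot be read apart from sex. Averaged over both genotypes or both diets, none of the 8 passed either, against 0.0182% and 0.0484% of genes, and their log2 fold changes stayed between -0.25 and 0.39.

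The enzymes did not vary as one set from tumor to tumor. Of the 28 pairs, 14 had a positive and 14 a negative correlation of log2 CPM over the 12 tumors, with a median r of -0.06. *Pgls* and *Rpia* had the highest r, 0.71 (0.59 after centring on the groups, 0.63 over the 9 mice), and *Pgd* with *Rpia* and *Pgls* with *Pgd* the lowest, -0.71 and -0.62. Without the second KP tumor these were -0.44 and -0.43, and that of *Pgls* and *Rpia* 0.55. *G6pdx* and *Tkt* had 0.49, which was -0.18 without the first KP and the first KPG1-PPARαΔ13 tumor. Tumors of 1 mouse enter separately here, and all points share the scaling of their library.

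**Figure D4:**
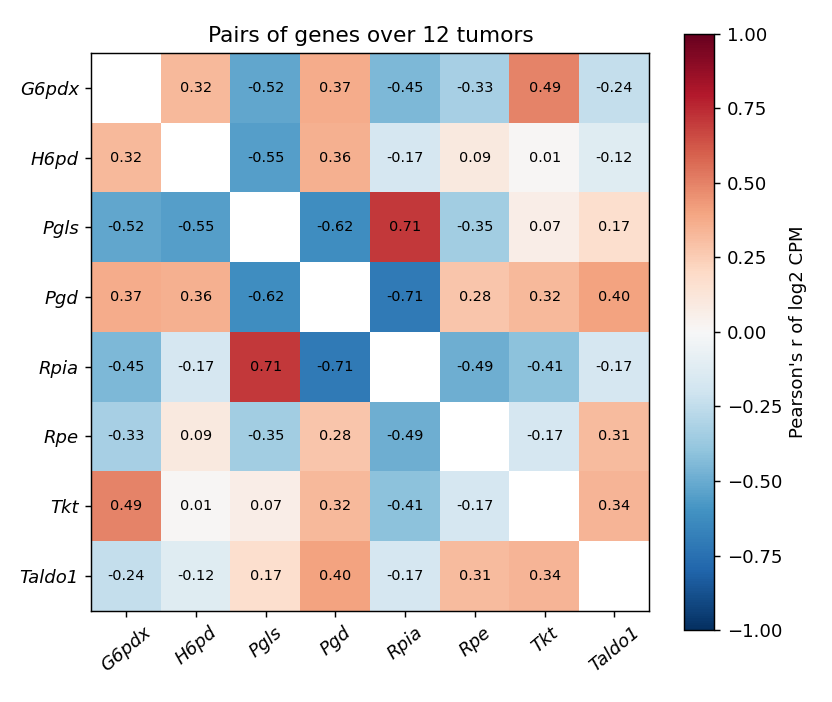
Pearson's r of log2 CPM for each pair of enzymes over the 12 tumors, from blue (-1) through white (0) to red (1). *Pgls* and *Rpia* form the one strongly red pair (0.71), and *Pgd* is blue with both (-0.62 and -0.71).

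A pair of KP tumors from one mouse lay at opposite ends for several enzymes. The first held 45.6 CPM of *Rpe*, the highest of all 12, and the second 20.8 CPM, the lowest. The first held the lowest *G6pdx* and *Tkt*, and the second 2.07 times as much of each. The second also held the highest *Rpia* and *Pgls* and the lowest *Pgd*. In the same tumor the 7 cycling markers summed to 446 TPM, the highest of 12, and the epithelial markers to 4563 TPM and erythroid markers to 1665 TPM, the lowest. Their part in these values was not tested. In the pair of KPG1-PPARαΔ13 tumors from one mouse, *H6pd* differed 2.03-fold and *G6pdx* 1.91-fold, while *Rpe* differed 1.01-fold.

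Levels of the enzymes were also set beside the marker sums of other cell types over the tumors. *H6pd* followed the AT2 sum, with r = 0.76 and rho = 0.77 over 12 tumors, 0.72 without the 2 tumors farthest from the median, 0.66 after centring on the groups and 0.91 over the 9 mice. Its nearest genes by the correlation of log2 CPM, among 10239 genes, were *Rilp* (r = 0.91), *Slc34a2* (0.91), the phosphate transporter of AT2 cells, and *Kcnk5* (0.89). *Pgls* went with the cycling sum (r = 0.66) and against the epithelial sum (-0.68), *Pgd* with the erythroid sum (0.65), and *G6pdx* against the club sum (-0.64). These 5 are the largest in size of 64 such values, and the part of cell content in them was not tested. The second KP tumor held both the lowest *Pgd*, 137 CPM, and the lowest erythroid sum, 1665 TPM. It also held the highest *Pgls*, 47.2 CPM, the highest cycling sum, 446 TPM, and the lowest epithelial sum, 4563 TPM. Without the 2 tumors farthest from the median of each sum, *Pgls* had 0.62 with the cycling and -0.53 with the epithelial sum. *Pgd* then had 0.61 (rho = 0.46 over all 12 tumors) and *G6pdx* -0.48.

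**Figure D5:**
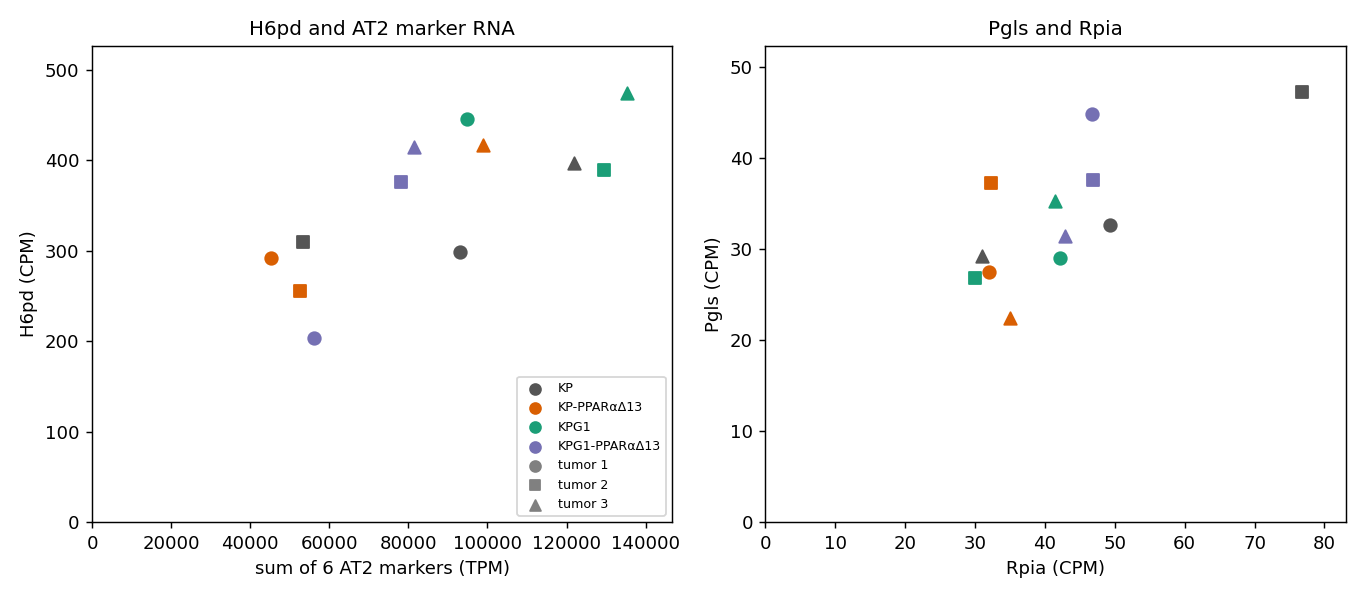
Left, *H6pd* (CPM) against the sum of 6 AT2 markers (TPM); right, *Pgls* against *Rpia* (both CPM); colours give the group and symbols the tumor number, and axes start at 0. *H6pd* is between 204 and 309 CPM in the 4 tumors with the lowest AT2 sums and between 389.9 and 474 CPM in the 3 with the highest, and the second KP tumor lies alone at the top right of the other plot.

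For the other enzymes the nearest genes were *Timp2* (r = 0.93), *Ssh3* (0.92) and *Gm340* (0.92) for *G6pdx*, *Ttc21b* (0.95), *Zfp282* (0.94) and *Rdh14* (0.92) for *Pgls*, and *Ndufs8* (0.85), *Sparc* (0.85) and *Chmp6* (0.85) for *Pgd*. They were *Zfp212* (0.96), the cell cycle kinase *Cdk2* (0.92) and *Meaf6* (0.91) for *Rpia*, and *Xpr1* (0.94), *Stx18* (0.91) and *Tmco1* (0.91) for *Rpe*. *Tkt* had *Tmem60* (0.91), *Gm6768* (0.86) and *Med29* (0.85), and *Taldo1*, with the lowest values of the 8, *Fbxw4* (0.82), *Gm6736* (0.78) and *Cox19* (0.76). None of the 8 enzymes was among the 3 nearest genes of another.

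Close relatives of the enzymes were nearly silent. The testis copy *G6pd2*, 93.2% identical in sequence to *G6pdx*, had 35 counts over all 12 tumors, the transketolase relative *Tktl1* 1 and *Tktl2* 0. Of the 12 relatives and side enzymes listed, 9 were tested and none passed the adjusted threshold with edgeR, DESeq2 or limma voom. *Pgm2* was the most abundant of those tested, with a mean of 154 TPM, and *Dera*, which cleaves deoxyribose-phosphate, had 11.5 TPM. *Tigar*, which lowers glycolytic flux at fructose-2,6-bisphosphate, read 17.8, 14.7 and 14.7 CPM in KP, 9.52, 9.60 and 12.9 CPM in KPG1 and 19.1, 15.1 and 16.3 CPM in KPG1-PPARαΔ13. The KPG1 tumors were below the others without overlap, but the log2 fold change of -0.56 ± 0.24 against KP had an edgeR adjusted p of 0.787, and that of 0.66 ± 0.24 in KPG1-PPARαΔ13 against KPG1 one of 0.42.

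In the steps from ribose-5-phosphate to nucleotides, none of 18 genes passed the adjusted threshold in any of the 4 comparisons of groups with edgeR, DESeq2 or limma voom. In KPG1-PPARαΔ13 against KPG1, 15 of 18 had positive log2 fold changes, with a median of 0.32 against 0.02 for all genes. The AT2 sums of these 2 groups lay apart, with means of 71906 and 119885 TPM, and their part was not tested. In KPG1 against KP 15 of 18 had negative ones, with a median of -0.23 against -0.03. There the club sums lay apart, at 167 to 455 TPM in KP and 471 to 966 TPM in KPG1, and their part was not tested. The second KP tumor, with the highest cycling sum, held 66.3 CPM of *Umps* against 34.3 and 35.4 CPM in the others of KP. It held 152 CPM of *Cad* against 74.5 and 70.5 CPM. The KPG1 means were 37.2 and 65.5 CPM, so both differences lean on that tumor. *Impdh1* lay apart, at 29.8 to 60.3 CPM in KP and 24.6 to 27.6 CPM in KPG1 (log2 fold change -0.72 ± 0.24, edgeR adjusted p 0.785). *Paics* lay apart the other way, at 334 to 410 CPM in KP and 496 to 650.2 CPM in KPG1 (0.54 ± 0.20, adjusted p 0.785). Within the KP group, *Prpsap1* and *Gmps* were highest in the third tumor. *Prps2*, which makes the activated ribose PRPP, had 64.4 to 109 CPM in the KP-PPARαΔ13 tumors and 163 to 203 CPM in those of KPG1-PPARαΔ13 (log2 fold change 1.11 ± 0.42, edgeR adjusted p 0.492). Between these groups the fibroblast sums lay apart, at 94.7 to 205 TPM and 50.8 to 73.3 TPM, and their part was not tested. *Impdh1*, of guanine nucleotide synthesis, had 24.6 to 27.6 CPM in KPG1 and 34.9 to 45.5 CPM in KPG1-PPARαΔ13 (0.61 ± 0.24, adjusted p 0.426). *Paics*, of purine synthesis, went the other way, with 496 to 650.2 CPM in KPG1 and 388 to 476 CPM in KPG1-PPARαΔ13 (-0.37 ± 0.20, adjusted p 0.531).

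Other sources of NADPH were 13 genes, none past the adjusted threshold with edgeR in a comparison of groups. *Mthfd1*, whose trifunctional protein makes NADPH in the cytosolic folate cycle, came nearest. It stood at 314, 270.3 and 257 CPM in KP, at 156, 144 and 128 CPM in KP-PPARαΔ13, at 258, 234 and 248 CPM in KPG1 and at 176, 194 and 179 CPM in KPG1-PPARαΔ13. Every tumor on doxycycline was below every tumor on the regular diet. The log2 fold change was -0.98 ± 0.15 in KP-PPARαΔ13 against KP (unadjusted p 4.77e-05, edgeR adjusted p 0.197) and -0.43 ± 0.15 in KPG1-PPARαΔ13 against KPG1 (adjusted p 0.42). DESeq2 gave *Mthfd1* an adjusted p of 1.71e-07 in the first of these comparisons, where it passed no other of the 13 genes, and limma voom passed none. Averaged over genotypes, doxycycline against regular diet, DESeq2 passed *Mthfd1* (adjusted p 3.29e-08) and *Idh2*, an isocitrate dehydrogenase that makes NADPH (log2 fold change -0.45 ± 0.11, adjusted p 0.0113), both lower. *Me1*, the cytosolic malic enzyme, had 345 to 427 CPM in KP and 487 to 728 CPM in KPG1 (0.58 ± 0.22, adjusted p 0.785).

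Users of NADPH and NRF2 targets gave no gene past the adjusted threshold with edgeR either. Of 15 NRF2 targets and regulators, 14 had positive log2 fold changes in KP-PPARαΔ13 against KP, with a median of 0.34 against -0.01 for all genes, and 13 in KPG1 against KP, with a median of 0.34 against -0.03. In KPG1-PPARαΔ13 against KPG1 11 of 15 were negative, with a median of -0.19. Beside the first of these comparisons, the 5 fibroblast markers summed to 51.4, 49.2 and 89.9 TPM in KP and to 189, 205 and 94.7 TPM in KP-PPARαΔ13, without overlap, and the epithelial markers to a mean of 6524 and 9241 TPM, with overlap. The erythroid markers lay apart there too, at 2687, 1665 and 3403 TPM in KP and at 5969, 3806 and 3911 TPM in KP-PPARαΔ13. Beside KPG1 against KP, the club markers summed to 455, 392 and 167 TPM in KP and to 966, 471 and 683 TPM in KPG1, without overlap. Beside the last, the AT2 markers summed to a mean of 119885 TPM in KPG1 and 71906 TPM in KPG1-PPARαΔ13, without overlap. Their part in the counts was not tested. Of the 12 users of NADPH, 10 were positive in KP-PPARαΔ13 against KP, with a median of 0.20, and 8 were negative in KPG1-PPARαΔ13 against KPG1, with a median of -0.29. *Gsr*, glutathione reductase, which spends NADPH, had 118 to 152 CPM in KP-PPARαΔ13 against 74.8 to 101 CPM in KP (log2 fold change 0.63 ± 0.26, edgeR adjusted p 0.401) and 66.9 to 85.4 CPM in KPG1-PPARαΔ13. *Slc7a11*, the cystine importer, had 16.1 to 37.2 CPM in KPG1 against 5.65 to 8.25 CPM in KP (1.88 ± 0.67, adjusted p 0.785). *Abcc1*, an exporter of glutathione conjugates, passed with DESeq2 (adjusted p 0.0241) in KP-PPARαΔ13 against KP and not with edgeR (1.81 ± 0.50, adjusted p 0.305) or limma voom. Averaged over genotypes, DESeq2 passed *Gsta4*, a glutathione transferase, as higher on doxycycline (0.62 ± 0.18, adjusted p 0.0374). *Nqo1*, a quinone reductase, was low in all groups, with 1.94 to 2.36 CPM in KP and 4.04 to 15.5 CPM in KPG1 (2.00 ± 0.81, adjusted p 0.787, and 1.26 without the second KPG1 tumor).

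Of 5 genes for the thiamine cofactor of *Tkt*, none passed the adjusted threshold with edgeR. The thiamine carrier *Slc19a3* had 9.40 to 17.8 CPM in KP and 0.64 to 4.73 CPM in KP-PPARαΔ13 (log2 fold change -2.50 ± 0.57, edgeR adjusted p 0.264, DESeq2 adjusted p 0.0014, and 0.0357 averaged over genotypes), while KPG1 with 8.64 to 12.6 CPM and KPG1-PPARαΔ13 with 8.07 to 10.1 CPM overlapped. *Tkt* itself had its highest value, 294 CPM, in a KP-PPARαΔ13 tumor. Of the 10 genes tested for glucose transporters, hexokinases, the glucose-6-phosphate isomerase and phosphofructokinases, *Slc2a1* had the smallest adjusted p, 0.289 in KP-PPARαΔ13 against KP (1.48 ± 0.36, DESeq2 adjusted p 0.0112). *Hk1*, a hexokinase that makes glucose-6-phosphate, had 0.91 ± 0.41 there (adjusted p 0.442), which was 0.53 without the second KP tumor.

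Sex and position in the genome were also recorded. *G6pdx* is X-linked, and its median was 65.3 CPM in the 6 tumors from females and 77.1 CPM in the 6 from males, ranges 31.5 to 82.4 and 50.1 to 114 CPM. Medians of autosomal members differed as well, with 304 CPM in females and 403 CPM in males for *H6pd*, 34.96 and 28.26 CPM for *Pgls* and 191 and 226 CPM for *Pgd*. *Ikbkg* lies on the opposite strand over 19712 bases of *G6pdx*, had 55.0 to 118 CPM and varied little with it (r = 0.20). *H6pd* and *Pgd* are on chromosome 4, the chromosome of *Slc2a1*, 30.87 and 30.04 Mb from it, at positions 149979475 to 150009023 and 149149991 to 149166771 on mm10.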

How the data were processed

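Stranded single-end libraries were made from mRNA of 12 mouse lung tumors after CD45-positive cells had been taken out. According to the submitters' processing notes, bcl2fastq 2.17, cutadapt 1.4.2, HISAT2, featureCounts 1.4.4 and edgeR were used with build mm10; the annotation and the strand setting of the counting are not given in the sources used here. The deposited values are counts of reads per gene, not normalized, in a table and in 12 equal files per tumor. The log2 values that the authors deposited equal the log2 of the count plus 0.5 up to a constant per tumor and were used for that check alone.

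Counts were fitted in edgeR 4.0.16 (R 4.3.3) with TMM scaling, filterByExpr by group, 12 tumors in 1 fit (8 residual degrees of freedom) and glmQLFTest, with p-values adjusted by Benjamini-Hochberg over 16527 genes at a threshold of 0.05. A standard error was taken as the size of the log2 fold change over the root of F. CPM is scaled by TMM. TPM used the exon lengths of GENCODE M21, which held 96.6% of the gene identifiers and 99.7% of counts. Correlations used log2 CPM (prior count 2). Promoter windows are from RefSeq, and related sequences were sought with BLAST+ 2.17.0. Alternatives were DESeq2 1.42.0, limma 3.58.1 voom with and without the mouse as a random effect, other scalings and filters, covariates for sex or for the replicate number (block), the compared groups alone, tumors of 1 mouse summed and leaving out each tumor. Tumors, not cultures, are the replicates, and tumors of 1 mouse were counted singly in the main fit, so that p-values treat them as independent. In lists other than the 8 enzymes, named genes are up to 2 per direction and comparison with the largest change among those without overlap. A few of these are described. *Pgm2*, *Dera*, *G6pd2*, *Tktl1*, *Tktl2*, *Umps*, *Cad*, *Prpsap1* and *Gmps* were named for their levels after these were seen. The 8 enzymes and the lists were chosen with earlier results of these data known. The number of per-sample columns without a sample was 0.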

Additional observations from a re-analysis of the deposited data

How the results depend on the processing

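None of the 8 enzymes passed the adjusted threshold under any of 11 alternatives or without any 1 of the 12 tumors; the smallest adjusted p was 0.179 (*Rpia*, interaction, limma voom with the mouse as a random effect) and, with a tumor left out, 0.191 (*Rpia*, KP-PPARαΔ13 against KP). The lowest count of an enzyme in a tumor was 671. Of 372 values recomputed under the 11 alternatives, 361 kept their direction and their side of the threshold or stayed within the spread, and of 408 with 1 tumor left out 387 did. Over all genes, DESeq2 passed 364, 192, 53 and 153 genes in KP-PPARαΔ13 against KP, KPG1-PPARαΔ13 against KPG1, KPG1 against KP and KPG1-PPARαΔ13 against KP-PPARαΔ13, where edgeR passed 1, 1, 6 and 5; in the interaction and averaged over genotypes or diets it passed 286, 286 and 39 against 0, 3 and 8. The cause was not tested.

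The enzymes' log2 fold changes that reversed were at most 0.17 in size (*Rpe*, KPG1 against KP), except *Pgls* in that comparison (-0.26). *Taldo1* in KP-PPARαΔ13 against KP was -0.0076 with limma voom, -0.028 with upper-quartile scaling, -0.038 at a mean of at least 20 TPM and -0.00077 with tumors of 1 mouse summed. *G6pdx* in KPG1 against KP was -0.028 with upper-quartile scaling, -0.044 at 20 TPM, -0.48 with sex as a covariate and -0.16 with tumors summed. With sex *Pgls* in that comparison was 0.039, the median of the 8 was 0.076, and the median of the interaction 0.00693. *H6pd* in KPG1-PPARαΔ13 against KP-PPARαΔ13 was -0.030 with the mouse as a random effect. By the longest transcript, mean levels were 148 TPM for *Pgd*, 164 for *Tkt* and 186 for *Taldo1*. With the compared groups alone, no filter or DESeq2 scaling no value of an enzyme reversed.

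Tumors with the same replicate number did not deviate together (r -0.19 to 0.13 over 18 pairs), so the numbers do not pair the samples. With the replicate number as a block, *Taldo1* in KP-PPARαΔ13 against KP was -0.00694, none of the 8 enzymes was called, and all genes called numbered 0, 2, 4 and 3 in the comparisons of groups.

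With each tumor left out in turn, the median of the 8 ranged from -0.066 to 0.081 in KP-PPARαΔ13 against KP, from 0.17 to 0.31 in KPG1 against KP and from -0.19 to 0.041 in KPG1-PPARαΔ13 against KP-PPARαΔ13. In KP-PPARαΔ13 against KP, *H6pd* ranged from -0.29 to 0.083, *Rpe* from -0.41 to 0.10 and *Taldo1* from -0.14 to 0.12. In KPG1 against KP, *G6pdx* ranged from -0.30 to 0.31 and *Rpe* from -0.10 to 0.41. In KPG1-PPARαΔ13 against KPG1, *G6pdx* ranged from -0.020 to 0.39 and *Tkt* from -0.18 to 0.0041. In KPG1-PPARαΔ13 against KP-PPARαΔ13, *H6pd* ranged from -0.15 to 0.30, *Rpe* from -0.25 to 0.14, *Taldo1* from -0.23 to 0.10 and *Tkt* from -0.32 to 0.10.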
